A study of Homo sapiens with 4 samples.

Results

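The kinesin motor family was examined in 2 cell lines of atypical teratoid/rhabdoid tumor, a malignant brain tumor of infancy, before and after chemotherapy. Members were taken as the rows of the deposited count table whose gene symbol is KIF, a number and at most 1 of the letters A to C, and 38 of 18449 symbols met this rule. Of these, 11 genes were treated as mitotic kinesins (*KIF11*, *KIF14*, *KIF15*, *KIF18A*, *KIF18B*, *KIF20A*, *KIF20B*, *KIF22*, *KIF23*, *KIF2C* and *KIF4B*), and the remaining 27 genes are called other kinesins, most of them motors of cargo transport. BT-16 and CHLA-266 are established patient-derived lines of the subtype AT/RT-MYC. Untreated cells received no drug, whereas treated cells received 1 µM doxorubicin, 5 µM etoposide and 1 µM vincristine in this order on consecutive days, and the cells that survived were grown on before RNA was taken. Each line gave 1 library per condition, so that 2 untreated and 2 treated libraries were available, all of batch C, and the lines served as the replicates of a condition. The comparison asked which motors changed in the cells that came through the drugs, and *p* values measure the spread between 2 different lines, not between cultures of 1 line.

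Kinesins are motor proteins that use ATP to walk along microtubules or to take microtubules apart. One set builds the mitotic spindle, moves and aligns chromosomes and completes the division of the cell, and its genes are read mainly in the G2 and M phases of the cell cycle. Another set carries vesicles, organelles, RNA and ciliary components and is used by cells whether or not they divide, above all by neurons. Doxorubicin and etoposide act on topoisomerase II and break DNA, and vincristine binds tubulin, the track on which every kinesin moves.

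Library totals ranged from 49849257 to 75087193 counts, and the treated library had the lower total in both lines. *MYC*, the oncogene that names the subtype, had 6804 to 14275 counts per library, and *SMARCB1*, the gene most often lost in these tumors, had 827 to 1394 counts. *MYC* was lower in treated cells (log2 fold change -0.59, SE 0.17, edgeR adjusted *p* = 0.0289), and *SMARCB1* did not pass the test (-0.34, SE 0.21). In the edgeR quasi-likelihood test of treated against untreated libraries, 19.1% of 18066 tested genes were lower and 16.1% were higher at an adjusted *p* value under 0.05, and the median log2 fold change of all tested genes was 0.24. Treated libraries also held more reads in genes that such cells should hardly use. The 95th percentile of 388 olfactory receptor genes was 4.10 and 3.61 counts per kilobase of exon in untreated BT-16 and CHLA-266 cells but 26.2 and 21.1 in treated cells, and kinesins below this level are named where they appear.

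Mitotic kinesins were lower in treated cells. Of the 11 genes, 9 fell, none rose, and *KIF18A* and *KIF4B* passed the test in neither direction. Their median log2 fold change was -4.0 (-3.87 within BT-16 and -4.20 within CHLA-266). Of the 27 other kinesins, 3 fell, 6 rose and 18 did neither, with a median of 0.26 (0.27 within BT-16 and 0.26 within CHLA-266). Both sets of counts stand beside 19.1% of all tested genes lower and 16.1% higher. The median of all tested genes was 0.24 in this fit, but lay further away with filters on low counts, as given in the closing section. The medians of the mitotic and the other kinesins differed by -4.26 on the log2 scale. In bulk RNA, fewer dividing cells and less RNA per dividing cell cannot be told apart. An exact permutation test of 2 against 2 libraries cannot give a two-sided *p* value below 0.333, so every call rests on edgeR, which shares its estimate of the spread over all genes.

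**Figure D1:**
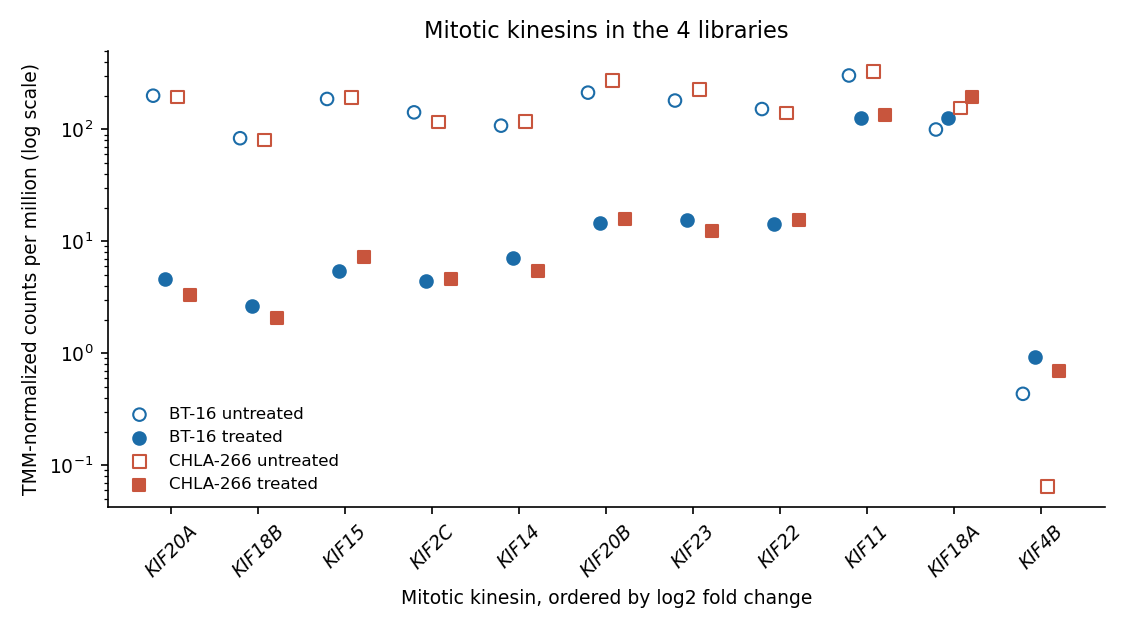
Level of each of the 11 mitotic kinesins in the 4 libraries, in CPM (counts per 1000000 counts, TMM-normalized) on a log axis, with 1 point per library. The treated points lie far below the untreated points for 8 genes, closer to them for *KIF11* (126 and 135 against 303 and 329 CPM), and among or above them for *KIF18A* and *KIF4B*.

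Of the motors that push the spindle poles apart, *KIF11* (Eg5, ENSG00000138160, chr10:92574105-92655395 in GENCODE 44 on hg38) is the main one, and it fell the least of the 9. Levels are given as CPM, counts per 1000000 counts of TMM-normalized library size. *KIF11* was at 303 and 329 CPM in untreated BT-16 and CHLA-266 cells and at 126 and 135 CPM in treated cells. The treated libraries lay below the untreated ones without overlap, at a 2.42-fold lower level (log2 fold change -1.28, SE 0.16, edgeR adjusted *p* = 0.000689). *KIF15*, which can take over the work of *KIF11* at the spindle, was at 187 and 192 CPM in untreated and at 5.43 and 7.29 CPM in treated cells. It fell by 29.8-fold, with within-line log2 ratios of -5.10 and -4.72 against -1.26 and -1.29 for *KIF11* (log2 fold change -4.90, SE 0.21, edgeR adjusted *p* = 2.15e-06).

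Of the motors of chromosome movement, *KIF22*, *KIF2C* and *KIF18B* fell and *KIF18A* and *KIF4B* did not pass the test. *KIF22*, which pushes chromosome arms away from the poles, was at 152 and 140 CPM in untreated BT-16 and CHLA-266 cells and at 14.4 and 15.5 CPM in treated cells. *KIF2C* (MCAK), which takes microtubules apart at the kinetochore to correct wrong attachments, was at 142 and 117 CPM before and at 4.41 and 4.66 CPM after treatment. Both genes fell without overlap of the groups, *KIF22* by 9.74-fold and *KIF2C* by 28.5-fold. *KIF18B*, which limits the length of astral microtubules, was at 83.4 and 80.1 CPM in untreated and at 2.63 and 2.08 CPM in treated cells, a 34.7-fold fall (log2 fold change -5.11, SE 0.21, edgeR adjusted *p* = 1.92e-06).

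*KIF18A* (ENSG00000121621, chr11:28020619-28108156), the closest relative of *KIF18B* and the motor that dampens chromosome movements at the spindle equator, did not show this fall. Untreated cells had 6882 and 9512 counts and treated cells 7323 and 10084 counts in BT-16 and CHLA-266, which is 99.8 and 155 CPM before and 127 and 194 CPM after treatment. The treated value was the higher one in each line, with log2 ratios of 0.34 (95% interval 0.30 to 0.39) in BT-16 and 0.33 (0.29 to 0.37) in CHLA-266, yet the groups overlapped because untreated CHLA-266 cells lay above treated BT-16 cells. Its log2 fold change of 0.33 (SE 0.26) missed the threshold (edgeR adjusted *p* = 0.331). When the lines were taken as blocks the value was 0.34 (edgeR adjusted *p* = 0.062), and it passed in DESeq2 with that block (0.40, adjusted *p* = 0.0287). In fits without the cell line in the model, leaving out 1 library unbalances the lines, and the value changed with the library left out. It was 0.61 without treated BT-16 and 0.68 without untreated CHLA-266 cells, but 0.05 without untreated BT-16 and 0.00 without treated CHLA-266 cells. *KIF18A* was also one of only 2 kinesins that differed between the lines, being 1.54-fold higher in CHLA-266.

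The motors of cytokinesis all fell. *KIF20A* (MKLP2, ENSG00000112984, chr5:138178719-138187723), which brings the chromosomal passenger complex to the midzone of the dividing cell, was at 200 and 194 CPM in untreated BT-16 and CHLA-266 cells and at 4.58 and 3.29 CPM in treated cells. This 50-fold fall was the largest of the 38 kinesins (log2 fold change -5.64, SE 0.23, edgeR adjusted *p* = 1.92e-06). *KIF20B* was at 213 and 274 CPM before and at 14.6 and 16 CPM after treatment. *KIF23* (MKLP1), a part of the centralspindlin complex, was at 181 and 227 CPM before and at 15.6 and 12.4 CPM after treatment. *KIF14*, which recruits citron kinase to the midbody, fell by 18.2-fold, from 108 and 118 CPM to 7.04 and 5.41 CPM. No treated library reached any untreated library for these genes, and *KIF20B* and *KIF23* were lower by 16-fold and 14.6-fold.

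*KIF4B* (chr5:155013755-155018141), a copy of the chromosome motor *KIF4A* that lacks introns, had 30 and 4 counts in untreated BT-16 and CHLA-266 cells and 54 and 36 counts in treated cells. Only the count of untreated BT-16 cells, per kilobase, was above the olfactory receptor level, and the log2 fold change of 1.69 (SE 1.11) missed the threshold (edgeR adjusted *p* = 0.256). Its transcript was 94.4% identical to that of *KIF4A* over aligned positions, and 2.03% of its read-length windows were shared with that gene, so the origin of its few reads is uncertain to that extent. *KIF4A* lies on the X chromosome, whose genes were removed from the table by the authors, and was not analysed here.

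With the other mitotic motors low, *KIF18A* and *KIF11* made up most of what remained. Mitotic kinesins took 36.8% (exact 95% interval 36.61 to 36.95) of all kinesin counts in untreated BT-16 cells and 37.8% (37.66 to 38.01) in untreated CHLA-266 cells. In treated cells this share was 11.5% (11.31 to 11.62) in BT-16 and 11.5% (11.34 to 11.63) in CHLA-266. These intervals cover counting error only. Within the mitotic counts, *KIF18A* and *KIF11* together went from 24.1% to 78.4% in BT-16 and from 26.5% to 83.0% in CHLA-266, and *KIF18A* alone from 5.97% to 39.3% and from 8.47% to 49.0%. Other kinesins summed to 2872 and 2998 CPM in untreated and 2491 and 3054 CPM in treated BT-16 and CHLA-266 cells, so that the difference in shares came with mitotic sums of 1671 and 1824 CPM before and 323 and 396 CPM after treatment.

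**Figure D2:**
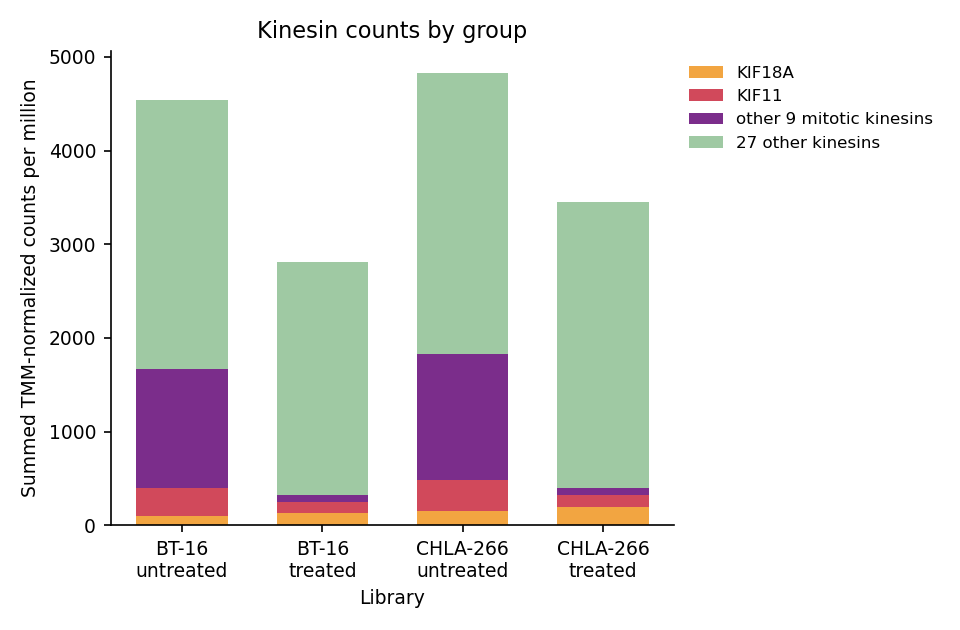
Summed CPM of *KIF18A*, *KIF11*, the 9 remaining mitotic kinesins and the 27 other kinesins, as stacked bars from 0, in each of the 4 libraries. The mitotic part is 1671 and 1824 CPM in untreated and 323 and 396 CPM in treated libraries, where *KIF18A* and *KIF11* fill most of it.

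The order of levels per kilobase of exon differed between conditions. *KIF5B*, *KIF11*, *KIF20A*, *KIF1C* and *KIF1A* held ranks 1 to 5 in untreated cells of both lines, at 123, 56.9 and 52.0 CPM per kilobase for the first 3 in BT-16 and at 150, 61.9 and 50.3 in CHLA-266. In treated cells *KIF5B* kept rank 1, *KIF20A* was at 1.19 and 0.854 CPM per kilobase, and *KIF18A*, at ranks 10 and 9 before, stood at rank 4 in BT-16 and rank 3 in CHLA-266 with 28.0 and 43.0 CPM per kilobase. *KIF11* stood at rank 5 in treated cells of both lines, next to *KIF3A* at rank 6.

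Genes of the G2 and M phases often carry a cell cycle genes homology region (CHR), bound by the DREAM and MuvB complexes, downstream of CCAAT boxes, which bind NF-Y. Promoter windows of 250 bases before and 50 bases after each RefSeq start (GRCh38.p14) were searched on both strands for the CHR letters TTTGAA, for CCAAT, and for the E2F letters TTTGGCGC or TTTCGCGC, and 32 of 38 kinesins had a window. To show the core of the promoter in genes that fell and in *KIF18A*, which did not, stretches from 100 bases before to 30 bases after the start are given 5′ to 3′ on the strand of the gene, with matches in capitals. A match on the opposite strand appears as its reverse complement. The positions are chr11:28108127-28108256 on the minus strand for *KIF18A*, chr17:44947744-44947873 on the minus strand for *KIF18B*, chr10:92593030-92593159 on the plus strand for *KIF11*, chr1:200620722-200620851 on the minus strand for *KIF14*, chr3:44761694-44761823 on the plus strand for *KIF15*, chr5:138179012-138179141 on the plus strand for *KIF20A*, and chr9:34329239-34329368 on the minus strand for *KIF24*.
KIF18A: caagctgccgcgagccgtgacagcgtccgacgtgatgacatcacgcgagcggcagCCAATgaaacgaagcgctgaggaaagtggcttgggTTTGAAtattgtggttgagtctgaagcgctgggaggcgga
KIF18B: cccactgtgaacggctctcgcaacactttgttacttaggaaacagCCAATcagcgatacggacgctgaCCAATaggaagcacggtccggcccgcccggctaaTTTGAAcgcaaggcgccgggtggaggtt
KIF11: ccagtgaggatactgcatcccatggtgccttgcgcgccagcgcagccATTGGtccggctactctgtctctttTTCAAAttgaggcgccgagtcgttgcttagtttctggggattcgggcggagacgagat
KIF14: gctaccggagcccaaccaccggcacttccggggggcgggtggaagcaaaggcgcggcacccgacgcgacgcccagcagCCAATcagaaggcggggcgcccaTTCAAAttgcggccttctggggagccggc
KIF15: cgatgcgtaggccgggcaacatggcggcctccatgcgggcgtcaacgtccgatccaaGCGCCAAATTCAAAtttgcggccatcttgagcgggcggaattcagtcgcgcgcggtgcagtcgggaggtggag
KIF20A: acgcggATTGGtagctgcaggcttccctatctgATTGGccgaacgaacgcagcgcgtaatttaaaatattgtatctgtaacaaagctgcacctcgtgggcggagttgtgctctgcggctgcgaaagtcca
KIF24: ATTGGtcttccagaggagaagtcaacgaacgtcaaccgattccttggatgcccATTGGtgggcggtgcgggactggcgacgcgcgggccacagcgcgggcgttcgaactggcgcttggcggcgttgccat

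The CHR letters stood in windows of 8 of the 11 mitotic kinesins and CCAAT in windows of 9. Of the 21 other kinesins searched, 1 (*KIF5B*) held the CHR letters and 7 held CCAAT. Counted by gene in the same way, 4961 of all 27305 genes with a window held the CHR letters, 10846 CCAAT and 382 an E2F match. Counted by window, 15.2% of all 35116 RefSeq windows held the CHR letters, 34.6% CCAAT and 1.15% an E2F match. Both mitotic kinesins without a call, *KIF18A* and *KIF4B*, carried CHR and CCAAT letters, as did 5 of the 9 that fell. Counted from the start to the first base of the match, *KIF18A* holds the CHR letters at -10 and CCAAT at -45, and *KIF11* holds them at -28 and -53. *KIF20A*, with the deepest fall, has no CHR match but has CCAAT letters at -94 and -67, and the windows of *KIF22* and *KIF2C* hold no CHR match either. *KIF15* was the only kinesin searched that had an E2F match, which lies directly before its CHR match in the stretch above. *KIF24*, not a member of the mitotic set, has 3 CCAAT matches and no CHR match. These matches describe exact letters only. Other forms of a motif were not searched, so a window without a match is not shown to lack the element, and binding was not measured.

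**Figure D3:**
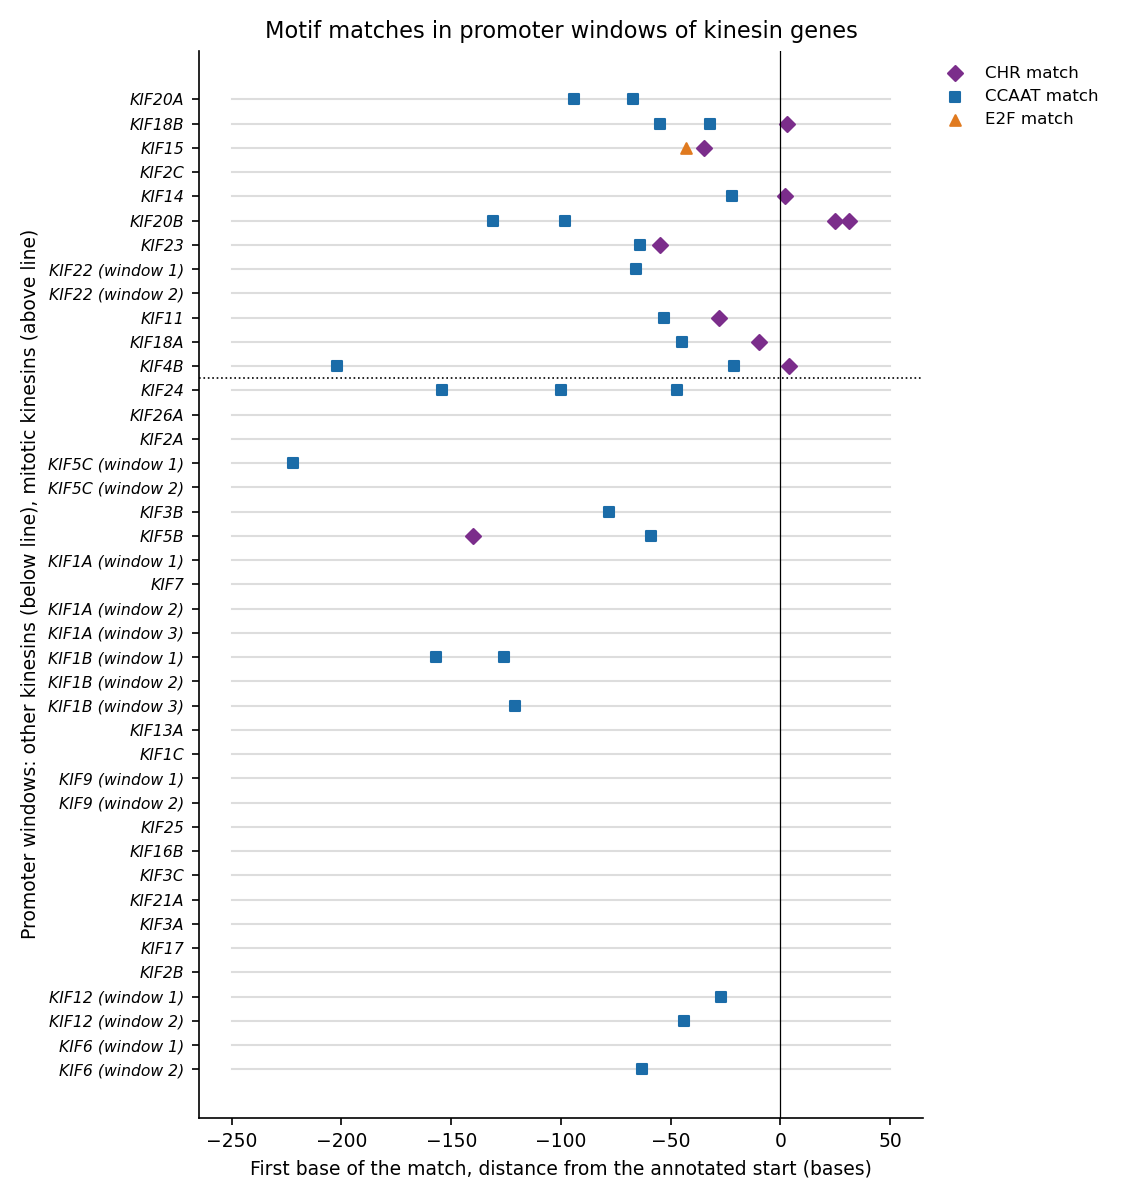
Matches to CHR, CCAAT and E2F letters in the RefSeq promoter windows of the 32 kinesins searched, plotted by the distance of the first base of the match from the annotated start (bases), with 1 line per window and mitotic kinesins above the dotted line. Within each set, genes are ordered by log2 fold change from lowest at the top, and *KIF18A*, which did not fall, carries the same pair of CCAAT and CHR as *KIF11*.

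Of 5 kinesins whose symbols fall outside the rule, 2 fell and none rose, beside 19.1% and 16.1% of all genes. *CENPE*, a kinetochore motor that brings chromosomes to the spindle equator, went from 15327 and 18494 counts in untreated BT-16 and CHLA-266 cells to 433 and 618 counts in treated cells (log2 fold change -4.75, SE 0.28, edgeR adjusted *p* = 8.88e-06). *KIFC1*, a motor that holds spindle poles together, went from 14558 and 10966 to 1592 and 605 counts (log2 fold change -3.31, SE 0.36, edgeR adjusted *p* = 0.000343). The 3 remaining genes did not pass the test, with log2 fold changes of -0.38 for *KIFC2*, -0.39 for *STARD9* and 1.65 for *KIFC3* (edgeR adjusted *p* = 0.0526 for *KIFC3*).

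Genes of proteins that work with mitotic kinesins fell as well. Of 18 partners, 17 fell and none rose, beside 19.1% and 16.1% of all genes, with a median log2 fold change of -3.79. *MKI67*, a marker of dividing cells, fell most (-6.03), and *TPX2*, which brings Aurora A and *KIF15* to the spindle, was the most abundant per kilobase in the mean of the 4 libraries and fell by 4.22 on the log2 scale. *NUSAP1*, with 32 to 103 counts per library, was the one gene of the list that missed the threshold. Of 16 regulators of G2 and M transcription, 11 fell and 1 rose, beside the same shares of all genes, with a median of -0.70. *MYBL2*, which joins MuvB to activate mitotic genes, fell by 5.67 on the log2 scale and *FOXM1* by 4.72, whereas *CDKN1A*, the inhibitor p21, rose by 1.88 and was the most abundant gene of the list per kilobase in treated but not in untreated cells. Its counts went from 8181 and 6485 to 25541 and 19760.

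Other kinesins split into genes that fell, genes that rose and a majority that did neither. The 3 that fell and 6 that rose of 27 stand beside 19.1% and 16.1% of all genes. With upper-quartile normalization 2 fell and 10 rose, with library totals 2 fell and 9 rose, and with the lines as blocks 5 fell and 6 rose.

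**Figure D4:**
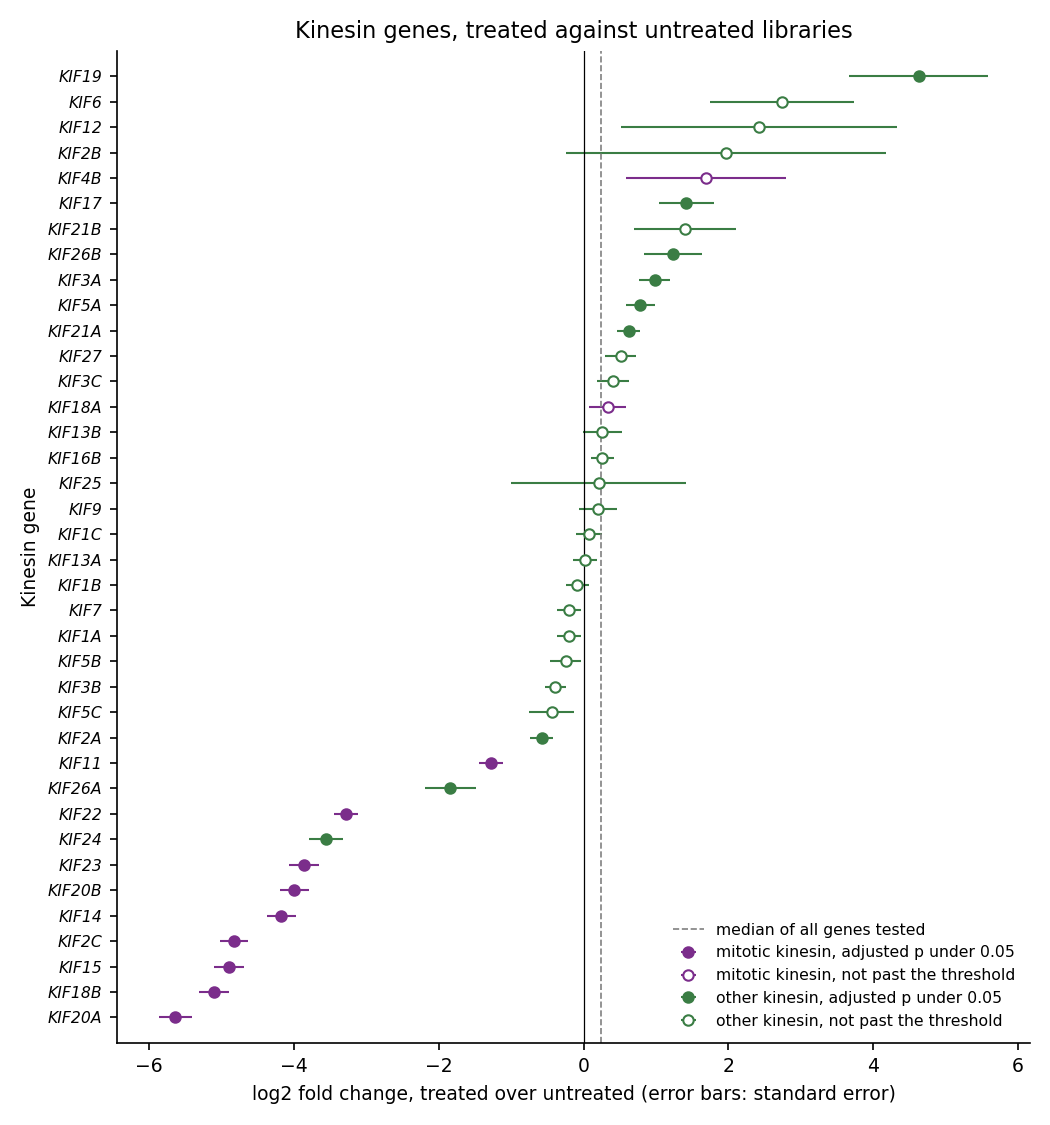
Log2 fold change of treated against untreated cells for all 38 kinesins, with bars for the standard error of edgeR, a dashed line at the median of all tested genes (0.24) and filled points for genes past the adjusted *p* value threshold. Mitotic kinesins occupy the low end down to -5.64, with *KIF18A* at 0.33 and *KIF4B* at 1.69 as exceptions, and other kinesins spread around 0.26 from -3.56 to 4.63.

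Of the other kinesins that fell, *KIF24* (ENSG00000186638, chr9:34252380-34329268) stood nearest to the mitotic genes. This motor removes microtubules at the mother centriole and so holds back cilia, and it belongs to the kinesin-13 subfamily like *KIF2C*. It had 2173 and 1872 counts in untreated BT-16 and CHLA-266 cells and 146 and 141 counts in treated cells, an 11.8-fold fall without overlap (log2 fold change -3.56, SE 0.24, edgeR adjusted *p* = 1.88e-05). Per kilobase, its count in treated BT-16 cells did not exceed the olfactory receptor level, so the low end is less certain than the direction. *KIF2A*, another kinesin-13 with work at spindle poles and in neurons, was at 110 and 113 CPM before and at 68.1 and 81.3 CPM after treatment (log2 fold change -0.58, SE 0.16, edgeR adjusted *p* = 0.0247). This call passed under 7 of 13 alternatives, and missed with upper-quartile normalization (-0.23), library totals (-0.36) and at least 10 counts in every library (-0.40). Leaving out the untreated BT-16, treated BT-16 or untreated CHLA-266 library gave log2 fold changes of -0.59, -0.46 and -0.56 and edgeR adjusted *p* values of 0.0732, 0.119 and 0.0927. Exons of *DIMT1* on the opposite strand cover 18.7% of its exon bases, and *DIMT1* fell by 1.07 on the log2 scale. *KIF2B*, the last kinesin-13, had at most 18 counts in any library.

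*KIF26A* and *KIF26B* are kinesins without motor activity that act in signalling and adhesion, and they moved in opposite directions. *KIF26A*, which dampens growth factor signalling in enteric neurons, had 858 and 646 counts in untreated and 226 and 130 counts in treated BT-16 and CHLA-266 cells. It fell by 3.57-fold (log2 fold change -1.84, SE 0.35, edgeR adjusted *p* = 0.00494), and its count per kilobase in treated CHLA-266 cells did not exceed the olfactory receptor level. *KIF26B*, a factor in kidney development and cell polarity, had 642 and 244 counts in untreated and 996 and 721 counts in treated cells. It rose by 2.34-fold (log2 fold change 1.23, SE 0.40, edgeR adjusted *p* = 0.0407), and without the untreated CHLA-266 library its log2 fold change was 0.74 (edgeR adjusted *p* = 0.14).

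Heterotrimeric kinesin-2, the motor of anterograde transport in cilia, joins *KIF3A* to *KIF3B* or *KIF3C* with the adaptor *KIFAP3*. *KIF3A* (ENSG00000131437, chr5:132692628-132737638) had 3561 and 3990 counts in untreated BT-16 and CHLA-266 cells and 5542 and 6983 counts in treated cells. It rose by 1.98-fold (log2 fold change 0.98, SE 0.21, edgeR adjusted *p* = 0.00798) and passed under each of 13 alternatives. Its partner *KIF3B* had 7472 and 6738 counts before and 4612 and 4520 counts after treatment, a log2 fold change of -0.39 (SE 0.15) that missed the threshold (edgeR adjusted *p* = 0.0801) and passed it with the cell line as a block (edgeR adjusted *p* = 0.0354). The log2 fold change was 0.40 for *KIF3C* and 0.19 for *KIFAP3*, neither past the threshold. *KIF3A* and *KIF3B* thus had values of opposite sign, and this difference was not tested. Of 21 tested genes of intraflagellar transport, the cargo system of this motor, 5 fell and none rose, beside 19.1% and 16.1% of all genes, with a median of -0.19. *IFT88* fell by 1.64 and *IFT57*, the most abundant per kilobase in untreated cells, by 0.85 on the log2 scale. With the cell line as a block, 9 of these genes fell and 2 rose.

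*KIF17*, the homodimeric kinesin-2 of dendrites and cilia, had 264 and 209 counts in untreated and 717 and 358 counts in treated BT-16 and CHLA-266 cells. It rose by 2.67-fold (log2 fold change 1.42, SE 0.38, edgeR adjusted *p* = 0.0198), but not without the treated BT-16 library (0.93, edgeR adjusted *p* = 0.144) or the untreated CHLA-266 library (1.33, edgeR adjusted *p* = 0.0685). *KIF19*, a kinesin-8 that sets the length of motile cilia, had 6 and 2 counts before and 107 and 64 counts after treatment. Its log2 ratio was 4.30 (95% interval 3.24 to 5.89) in BT-16 and 4.93 (3.33 to 8.32) in CHLA-266, and it passed the test (edgeR adjusted *p* = 0.00752). All 4 values lay below the olfactory receptor level of their library, which was itself higher in treated cells, and the part of that level in the call was not tested.

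The neuronal motor *KIF5A* and the kinesin-4 *KIF21A*, which slows microtubule growth in axons, rose modestly. *KIF5A* was at 17.5 and 20.1 CPM in untreated and at 29.1 and 35.7 CPM in treated BT-16 and CHLA-266 cells, a 1.72-fold rise (log2 fold change 0.78, SE 0.20, edgeR adjusted *p* = 0.0186). Without the untreated BT-16 or treated CHLA-266 library, its log2 fold change was 0.69 or 0.64 (edgeR adjusted *p* = 0.0956 or 0.0512). *KIF21A* was at 88.9 and 102 CPM before and at 140 and 154 CPM after treatment, a 1.54-fold rise (log2 fold change 0.62, SE 0.16, edgeR adjusted *p* = 0.0187). Without the untreated BT-16 library it missed the threshold (0.52, edgeR adjusted *p* = 0.116). Neither gene showed overlap of untreated and treated libraries.

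Markers of other cell types were compared in the same libraries. Their numbers of calls stand beside 19.1% of all genes lower and 16.1% higher. Of 11 neuron markers 5 rose, 6 did not pass and none fell (3 rose with the lines as blocks), and their sum was 34.0 and 25.0 CPM in untreated and 60.1 and 63.7 CPM in treated BT-16 and CHLA-266 cells. Of 9 tested markers of multiciliated cells 4 rose, 5 did not pass and none fell, and their sum was 23.4 and 34.8 CPM before and 66.3 and 88.0 CPM after treatment. Macrophage markers (3 of 10 rose) summed to 6.48 and 3.49 CPM before and 11.1 and 7.22 CPM after treatment, and fibroblast markers (2 of 9 rose, 1 fell) to 14.8 and 11.1 CPM before and 24.0 and 13 CPM after treatment. No marker was at 0 in all 4 libraries. Per kilobase, only 1 of the 5 neuron markers that rose (*MAP2*) exceeded the olfactory receptor level in both treated libraries, as did 3 of the 4 multiciliated cell markers (*CCDC40*, *DNAH5*, *RSPH1*) and 0 of the 3 macrophage and 2 fibroblast markers that rose. The remaining markers that rose were at or below that level in at least 1 treated library. The genes past the threshold with the largest changes were *ELAVL3* (3.58), *DNAH9* (4.03), *AIF1* (8.52), *COL3A1* (8.29) and *COL1A2* (-2.21), and the fitted values of *AIF1* and *COL3A1*, at 0 counts in untreated cells, depend on the prior count. The part of these cell types in the kinesin results was not tested.

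The most abundant transport motors did not pass the test. *KIF5B*, the ubiquitous conventional kinesin heavy chain, was at 720 and 879 CPM in untreated and at 540 and 805 CPM in treated BT-16 and CHLA-266 cells. *KIF1A*, the motor of synaptic vesicle precursors, was at 787 and 724 CPM before and at 621 and 694 CPM after treatment. Both had negative log2 fold changes (-0.25, SE 0.22, and -0.20, SE 0.17), which turned positive under some scalings given in the closing section. *KIF1B*, a carrier of mitochondria and vesicles, had a log2 fold change of -0.09 (SE 0.16), and *KIF1C*, a carrier of integrins and RNA, one of 0.08 (SE 0.18). *KIF1C* was at 378 and 356 CPM in untreated and at 340 and 434 CPM in treated cells, so the lines went opposite ways.

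The 12 remaining genes without a call ranged widely in level. *KIF12*, *KIF2B*, *KIF6*, *KIF21B* and *KIF25* had at most 260 counts in any library, with *KIF2B* and *KIF6* below the olfactory receptor level in all 4 libraries and *KIF12*, *KIF21B* and *KIF25* in some. *KIF6*, found in motile cilia, had 10 and 10 counts before and 89 and 28 counts after treatment (log2 fold change 2.74, SE 1.00, edgeR adjusted *p* = 0.0611). *KIF27* had a log2 fold change of 0.51 (SE 0.22, edgeR adjusted *p* = 0.0998), and 7.85% of its read-length windows were shared with other genes. *KIF13A*, *KIF13B*, *KIF16B* and *KIF9* had log2 fold changes of 0.02 to 0.26, and *KIF5C* had -0.44 (edgeR adjusted *p* = 0.282, and 0.0497 with the lines as blocks). *KIF7*, the Hedgehog regulator at the tip of the cilium, was at -0.20, and 10.8% of its exon bases lie opposite exons of *TICRR*, which fell by 3.46 on the log2 scale.

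Genes that link kinesins to cargo were mostly without a call. Of 17 light chains and adaptors none fell and 3 rose, beside 19.1% and 16.1% of all genes, with a median of 0.48. *SPAG9* (JIP4), a scaffold that joins lysosomes to kinesin-1 and dynein, was the most abundant per kilobase in treated cells and rose most, from 15351 and 15671 counts in untreated to 43688 and 43229 counts in treated BT-16 and CHLA-266 cells (log2 fold change 1.73, SE 0.17, edgeR adjusted *p* = 0.000202). *MAPK8IP3* and *TRAK1*, which serve axonal and mitochondrial transport, rose by 0.66 and 0.51 on the log2 scale. Of 23 genes of dynein and dynactin, the motor that walks the opposite way, 5 fell and 2 rose, beside 19.1% and 16.1% of all genes, with a median of 0.01. *NDE1*, a dynein regulator with work in mitosis, fell by 1.90, and *DYNLL1*, the most abundant gene of the list per kilobase in each library, by 0.60 on the log2 scale. *DYNC1I1*, a neuronal intermediate chain, rose from 0 and 4 counts to 103 and 100 counts.

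Relatives within a subfamily often differed. The counts in each subfamily stand beside 19.1% of all genes lower and 16.1% higher. All 3 kinesin-6 genes fell (*KIF20A*, *KIF20B*, *KIF23*), and 3 of 4 kinesin-13 genes fell. Of these kinesin-13 genes, *KIF2A* passed under only 7 of 13 alternatives. In kinesin-8, *KIF18B* fell, *KIF19* rose and *KIF18A* did neither. Among 7 kinesin-3 genes only *KIF14*, the mitotic one, fell, while the 6 vesicle motors had no call. In kinesin-12 *KIF15* fell and *KIF12*, with 0 to 62 counts, had no call.

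Both lines gave like values for most members, in particular for the mitotic kinesins. *KIF11* had a log2 ratio of -1.26 (95% interval -1.30 to -1.22) in BT-16 and -1.29 (-1.33 to -1.25) in CHLA-266, and *KIF20A* one of -5.45 and -5.88. *KIF26B* had 0.89 and 1.81, and *KIF1C* had values of opposite sign. In the edgeR comparison of the lines with treatment in the model, 2.30% of all genes were called, and 2 of 38 kinesins were, both higher in CHLA-266. *KIF18A* differed by 0.62 (SE 0.14, edgeR adjusted *p* = 0.0131), and *KIF5C*, a neuronal conventional kinesin, by 0.74 (SE 0.18, edgeR adjusted *p* = 0.0204). *KIF5C* was at 24.6 CPM in BT-16 before and 17.9 CPM after treatment, and at 40.7 and 30.2 CPM in CHLA-266. With at least 10 counts required in every library, both calls were lost (edgeR adjusted *p* = 0.0508 and 0.0883).

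**Figure D5:**
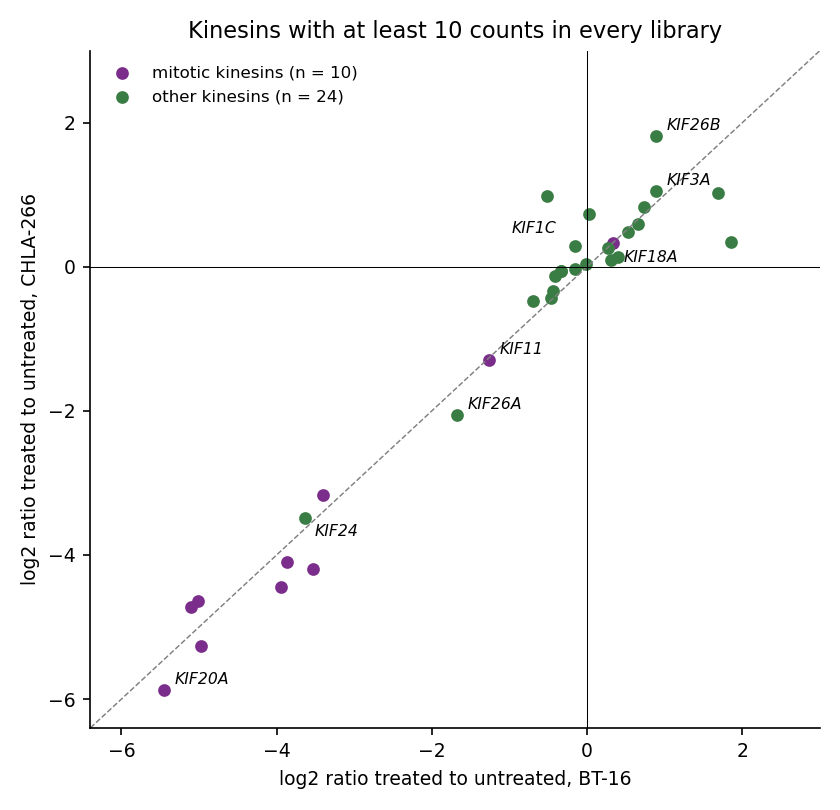
Log2 ratio of treated to untreated TMM-normalized counts in BT-16 (x axis) and in CHLA-266 (y axis) for the 34 kinesins with at least 10 counts in every library, with a dashed line of equal ratios. The mitotic kinesins lie near the line from -5.45 and -5.88 (*KIF20A*) to 0.34 and 0.33 (*KIF18A*), and *KIF26B* lies above it.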

How the data were processed

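RNA of untreated and treated BT-16 and CHLA-266 cells was sequenced from SMART-Seq Stranded libraries, with 1 library per line and condition. Per the labels, bcl2fastq 2.20 and STAR with hg38 were used. The authors deposited estimated counts per gene symbol, unnormalized and without sex chromosome genes. Values were rounded where they were not whole (5 values in 2 genes). Deposited log2 values, variance-stabilized by the authors, served as an alternative. The strand setting and the treatment of read pairs are not given in the sources used here. Only 20.5 to 34.2% of counts from 1 to 20 were odd, so intervals may be too narrow if each read of a pair gave 1 count.

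Of 18449 symbols, 383 with a total of 0 were left out. The conditions were compared in edgeR 4.0.16 under R 4.3.3 (TMM, quasi-likelihood test, adjustment of 18066 genes after Benjamini-Hochberg, threshold 0.05) without the cell line in the model, as the methods of the study name none. For BT-16, TMM gave factors of 0.919 before and 1.12 after treatment, for CHLA-266 0.930 and 1.04. The script was run on simulated data whose dispersion (spread beyond counting error) was set lower than the 0.14 estimated in the main fit. That run checked the working of the script and not the error rate of the calls. The fit was repeated with DESeq2 1.42.0, with limma 3.58.1 on the deposited log2 values, with the cell line as a block, with other scalings and filters, and without each library. The libraries are paired by the cell line itself, and over 12162 genes (no independent replicates) the untreated and the treated library of a line deviated together (r = 0.377). Within-line log2 ratios used 0.5 added counts and exact Clopper-Pearson 95% intervals (SciPy 1.17.1). Coordinates and exon lengths came from GENCODE 44.

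Members and lists were chosen with earlier results of these data known. Values are given for all mitotic kinesins; for other kinesins, at most 8 called genes per direction by adjusted *p* value, the 5 most abundant per kilobase in untreated cells, those with no more than 3 counts in each untreated library (there were none) and those with opposite within-line ratios; and the most changed and most abundant gene of each list. Further genes were named after their values were seen.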

Additional observations from a re-analysis of the deposited data

Results flagged for a closer look

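*KIF1C* was the one kinesin with within-line ratios of opposite sign and 95% counting intervals on opposite sides of 0. Its log2 ratio of treated to untreated was -0.16 (-0.18 to -0.13) in BT-16, with 26108 and 19636 counts in untreated and treated cells, and 0.29 (0.26 to 0.31) in CHLA-266, with 21898 and 22551 counts. With 1 library per line and condition, the difference between the lines was not tested.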

How the results depend on the processing

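With 1 library per line and condition, and lower totals in treated libraries, values of low genes are the least certain. The count of 9 mitotic kinesins that fell was the same under every alternative run. Other kinesins that fell numbered 5 with the lines as blocks, a replicate block (3 without it, 2 to 4 without 1 library), and 10 rose with upper-quartile normalization (6 in the main comparison, 4 to 6 without 1 library). The block added the calls of *KIF3B* and *KIF5C*. The median of mitotic kinesins was -3.65 with upper-quartile normalization and -3.46 with limma (-4.16 to -3.81 without 1 library). The median of other kinesins was 0.33 with DESeq2, with DESeq2 and the block and with DESeq2 size factors, 0.61 with upper-quartile normalization, 0.49 with library totals, 0.38 with at least 10 counts in every library and 0.23 with limma (0.22 to 0.31 without 1 library). The same scalings moved the median of all genes to 0.31 (DESeq2 size factors), 0.59 (upper quartile) and 0.46 (library totals). Filters moved it away from the median of other kinesins. It was 0.00 with at least 10 counts in every library (0.38 for other kinesins) and 0.11 with edgeR filterByExpr (0.27 for other kinesins). Without treated BT-16 cells it was 0.10 (0.24 for other kinesins). The difference of the medians of mitotic and other kinesins was -3.70 with limma (-4.43 to -4.11 without 1 library). Per kilobase of exon, mitotic kinesins took 50.6% and 50.5% of untreated and 19.2% and 18.9% of treated BT-16 and CHLA-266 levels, and with *KIF2A* and *KIF2B* added to them 39.2% and 40.2% of untreated and 13.9% and 13.8% of treated counts. Kinesins that differed between the lines numbered 1 with DESeq2 (*KIF18A*), 3 in edgeR with DESeq2 size factors (with *KIF5B* added, adjusted *p* = 0.0419) and 0 in edgeR with at least 10 counts in every library, where *KIF18A* and *KIF5C* had unadjusted *p* values of 0.000551 and 0.00161. Reversed signs, none of them called, were found for *KIF1A* (0.15 with upper quartile, 0.03 with library totals), *KIF1B* (0.26 and 0.14, and 0.09 with at least 10 counts), *KIF5B* (0.09 with upper quartile, -0.55 to 0.01 without 1 library, with 0.01 without treated BT-16 cells) and *KIF1C* (-0.10 to 0.24 without 1 library, with -0.10 without treated CHLA-266 cells). Apart from the scalings, which shift all genes, the cause was not tested.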

Other observations

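The gene next to the start of *KIF18A*, *METTL15*, was looked at after the values of *KIF18A* were seen. It starts 92 bases away and is read in the opposite direction (chr11:28108248-28527041 on the plus strand in GENCODE 44). *METTL15*, a methyltransferase of the mitochondrial ribosome, had 2364 and 1839 counts in untreated and 889 and 824 counts in treated BT-16 and CHLA-266 cells. It fell by 1.04 on the log2 scale (SE 0.20, edgeR adjusted *p* = 0.00507), whereas *KIF18A* had a log2 fold change of 0.33.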
